A study of Mus musculus with 12 samples.

Results

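The transcripts described here are those of 10 genes of MHC class I antigen presentation, chosen by gene symbol from the 22298 gene rows of the count table: the light chain B2m, the classical heavy chains H2-K1 and H2-D1, the non-classical heavy chains H2-Q4, H2-Q6, H2-Q7, H2-T22, H2-T23 and H2-M3, and the transactivator Nlrc5. All 10 symbols were found, and all 10 passed the low-count filter. They were measured by RNA sequencing in 4T1, a triple-negative mammary carcinoma cell line from the BALB/c mouse. The 6 groups, of 2 libraries each, were Cop1 sgRNA1 cells with IFNγ (interferon gamma, 20 ng/ml for 24 hours), Cop1 sgRNA2 cells with IFNγ, Rosa26 cells with IFNγ, and the same 3 populations with vehicle. Cop1 encodes an E3 ubiquitin ligase, and Rosa26 cells carry a guide RNA against a locus used as a neutral target. The design asks what losing Cop1 does to the transcriptome with and without IFNγ. The labels do not say whether a population was a pool or a clone, nor whether replicate libraries came from different cultures. The p-values therefore reflect the variation among these libraries alone, and that variation may be technical.

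The targeted gene was lower in both Cop1 guides. With IFNγ, Cop1 averaged 60.4 ± 0.388 CPM with sgRNA1 and 32.95 ± 0.935 CPM with sgRNA2, against 81.9 ± 2.07 CPM in Rosa26 cells (CPM, counts scaled by library total and TMM factor; SD, n = 2 libraries). With vehicle it averaged 61.1 ± 2.83 CPM with sgRNA1 and 34.6 ± 0.204 CPM with sgRNA2, against 94.0 ± 5.998 CPM in Rosa26 cells. Gene count totals lay between 19378070 and 32609717 over the 12 libraries, and the 10 genes held between 0.459% and 0.503% of the counts in IFNγ libraries and between 0.167% and 0.186% in vehicle libraries. Summed over 8 epithelial markers, the level lay between 2893 and 2977 CPM in Cop1-guide cells and between 2729.7 and 2731 CPM in Rosa26 cells with IFNγ, and between 3482 and 3521 CPM in Cop1-guide cells and between 3229 and 3304 CPM in Rosa26 cells with vehicle. This sum was higher in Cop1-guide cells without overlap in both treatments, but single markers went both ways. Of 7 tested, Cop1 loss raised 3 and lowered 2 in vehicle, and raised 3 and lowered 3 under IFNγ (adjusted p under 0.05, edgeR's quasi-likelihood test). Their median log2 changes were -0.096 and -0.147. Over all genes 16.6% rose and 19.2% fell in vehicle, and 19.8% rose and 20.7% fell under IFNγ. Of 15 leukocyte markers, Cd3e, Cd4, Cd8a, Ncr1 and Adgre1 were at 0 counts in all 12 libraries, and Ptprc did not pass 0.260 CPM. The summed leukocyte list, carried mostly by Cd14 and Cd68, lay between 24.1 and 30.9 CPM in Cop1-guide cells with IFNγ and between 39.2 and 40.7 CPM in Rosa26 cells with IFNγ. With vehicle it lay between 23.5 and 26.4 CPM in Cop1-guide cells and between 30.6 and 30.7 CPM in Rosa26 cells. The sum over 8 stromal markers lay between 16.4 and 24.7 CPM. The part of these markers in the differences between Cop1-guide and Rosa26 cells was not tested.

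MHC class I molecules carry peptides from inside the cell to its surface, where CD8 T cells and natural killer cells inspect them. The heavy chain folds with β2-microglobulin, the product of B2m, and most heavy chains need a peptide delivered by the TAP transporter to leave the endoplasmic reticulum. Transcription of the class I genes depends on an upstream enhancer with a κB element and an interferon-stimulated response element (ISRE), and on a conserved SXY module bound by RFX, CREB/ATF and NF-Y factors, onto which NLRC5 is recruited. IFNγ acts through its receptor and JAK kinases, and IRF1 and NLRC5 are among the genes it induces. H2-K1 and H2-D1 present peptides to CD8 T cells, H2-T23 encodes Qa-1, the mouse ligand of the CD94/NKG2 receptors, H2-Q6 and H2-Q7 are Qa-2 genes, H2-T22 is a ligand of γδ T cells that does not need peptide, and H2-M3 presents N-formylated peptides.

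Sequences before the transcription starts are printed for 1 classical chain, both Qa-2 genes and the light chain. The chains that fell with Cop1 loss in vehicle are also printed. The sequences show which motifs matched and which did not. They are the 250 bases before the RefSeq start on the C57BL/6J reference (GRCm38.p6), 5′ to 3′ along the gene, and not the BALB/c alleles of 4T1. The windows are chr17:34000348-34000597 (minus strand) for H2-K1, chr17:35424600-35424849 (plus strand) for H2-Q6, chr17:35438905-35439154 (plus strand) for H2-Q7, chr17:36032702-36032951 (minus strand) for H2-T23, chr17:37269984-37270233 (plus strand) for H2-M3 and chr2:122147437-122147686 (plus strand) for B2m. Capitals mark matches, on either strand, to the motifs named after the sequences.
H2-K1: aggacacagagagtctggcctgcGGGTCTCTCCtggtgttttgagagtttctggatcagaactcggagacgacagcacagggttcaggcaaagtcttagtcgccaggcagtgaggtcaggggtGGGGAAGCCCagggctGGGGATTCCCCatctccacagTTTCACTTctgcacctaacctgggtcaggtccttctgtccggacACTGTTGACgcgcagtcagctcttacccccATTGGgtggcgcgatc
H2-Q6: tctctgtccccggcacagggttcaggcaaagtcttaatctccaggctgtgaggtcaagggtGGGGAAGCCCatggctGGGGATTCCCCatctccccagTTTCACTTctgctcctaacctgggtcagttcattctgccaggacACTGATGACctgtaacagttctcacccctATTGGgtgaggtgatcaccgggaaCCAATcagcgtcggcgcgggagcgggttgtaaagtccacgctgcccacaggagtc
H2-Q7: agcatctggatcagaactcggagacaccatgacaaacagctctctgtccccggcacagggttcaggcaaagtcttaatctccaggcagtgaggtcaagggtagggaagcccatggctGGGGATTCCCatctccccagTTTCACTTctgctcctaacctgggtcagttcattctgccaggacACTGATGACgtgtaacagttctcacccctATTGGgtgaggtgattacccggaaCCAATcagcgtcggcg
H2-T23: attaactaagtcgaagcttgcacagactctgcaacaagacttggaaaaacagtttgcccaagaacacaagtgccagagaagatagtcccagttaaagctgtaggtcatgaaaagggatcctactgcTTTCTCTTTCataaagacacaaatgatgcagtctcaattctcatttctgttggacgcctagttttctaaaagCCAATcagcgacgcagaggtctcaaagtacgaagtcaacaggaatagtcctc
H2-M3: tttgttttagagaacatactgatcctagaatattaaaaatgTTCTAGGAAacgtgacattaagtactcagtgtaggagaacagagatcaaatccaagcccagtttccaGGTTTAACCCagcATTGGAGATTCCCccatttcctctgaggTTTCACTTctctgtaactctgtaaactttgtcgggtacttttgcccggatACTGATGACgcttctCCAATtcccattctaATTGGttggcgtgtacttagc
B2m: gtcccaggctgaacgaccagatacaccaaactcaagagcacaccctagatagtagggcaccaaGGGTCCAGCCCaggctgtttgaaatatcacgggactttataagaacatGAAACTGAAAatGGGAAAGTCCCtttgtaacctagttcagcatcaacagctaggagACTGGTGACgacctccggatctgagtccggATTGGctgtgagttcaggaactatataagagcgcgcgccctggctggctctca

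Each motif was searched on both strands in the 9 member windows that RefSeq's table gives, Nlrc5 having none there, and in all 32851 windows of the table. The Y box CCAAT, the NF-Y element, was in 9 of 9 member windows and in 33.9% of all windows. The κB form, GGG and CC set apart by 5 bases, was in 8 of 9, with H2-T23 as the exception, and in 45.8% of all windows. The ISRE core, GAAA and GAAA set apart by 2 bases, was in 3 of 9, those of B2m, H2-T23 and H2-T22, and in 2.98% of all windows. An interferon gamma activated form, TTCNNNGAA, was in the H2-M3 window alone of the 9 and in 7.02% of all windows, and the AP-1 form TGANTCA was in 0 of 9 and in 6.75% of all windows. Reading the windows led to 2 more forms: the short ISRE AAGTGAAA, in 7 of 9 (not in B2m or H2-T23) and in 1.36% of all windows, and the X-box-like ACTGNTGAC, in 7 of 9 (not in H2-T23 or H2-T22) and in 0.892% of all windows. The order from upstream to start was κB, ISRE, X box and Y box in H2-K1, H2-D1, H2-Q4, H2-Q6 and H2-Q7. In H2-Q6 the X-box-like match ran from 108 to 100 bases before the start and in H2-Q7 from 69 to 61 bases. In H2-T22 the short ISRE lies inside the ISRE core match, and in H2-M3 a Y box overlaps a κB match, so these are not separate elements. The class I genes are related by descent and the windows are not independent of each other. A match is a run of letters and says nothing about binding in 4T1 cells. A motif without a match depends on the exact letters searched and on the start chosen. The RefSeq start lay 154 bases inside the GENCODE gene for H2-T23 and 364 bases inside it for H2-D1. For the other windows it lay at most 14 bases from the GENCODE start.

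**Figure D1:**
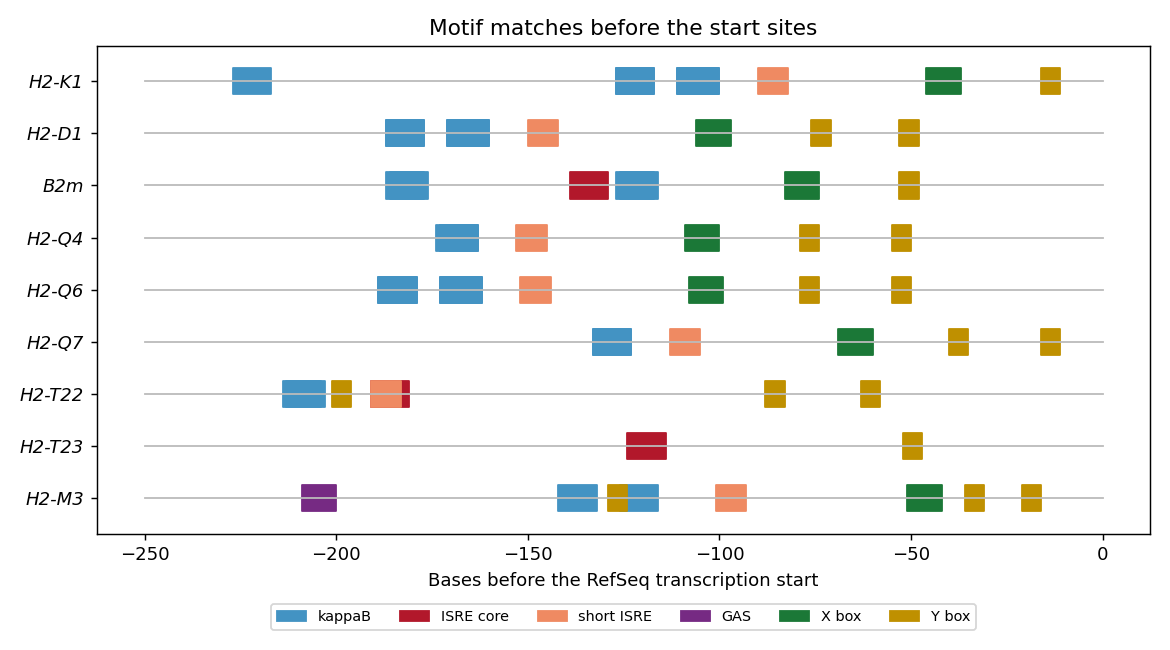
Positions of motif matches (coloured boxes) in the 250 bases before the RefSeq start for the 9 members with a window; the x axis is the distance from the start in bases. The κB, short ISRE, X box and Y box matches follow each other in the same order in H2-K1, H2-D1, H2-Q4, H2-Q6 and H2-Q7. The H2-T23 window matched the ISRE core and the Y box only, and its RefSeq start lies 154 bases inside the GENCODE gene.

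How far a count can be credited to its own gene differed between the members. The 4T1 line carries the BALB/c class I haplotype, and the reads were aligned to the C57BL/6J reference, so a read is counted where its allele fits that reference best, or is lost. As a measure on the reference alone, the share of each member's 50-base stretches that also occur in transcripts of another gene was 0% for B2m and for Nlrc5, 0.576% for H2-M3, 8.79% for H2-K1 and 14.3% for H2-D1. It was 24.3% for H2-Q4, 28.8% for H2-T23, 32.0% for H2-Q6, 40.2% for H2-Q7 and 44.7% for H2-T22. H2-Q7 shared 20.1% of its stretches with H2-Q5 and 19.6% with H2-Q6, and H2-T22 shared 37.9% with H2-T10, which has no row in the table used here. Counts of H2-Q6, H2-Q7, H2-T22, H2-T23 and H2-Q4 are therefore given as uncertain between near-identical copies, and the main results for H2-Q6, H2-Q7 and H2-Q4 are also given with paralogous rows summed. The measure does not cover class I genes or alleles of BALB/c that the reference lacks. Counts of H2-D1 and H2-K1 may therefore also hold reads of such genes, which was not tested. No paralogous row of the table was summed with H2-T22 or H2-T23. The sum of H2-Q6 and H2-Q7 leaves out H2-Q4 and H2-Q5, with which H2-Q6 shared 12.3% and 5.99% of its stretches. It covers only part of the shared sequence. Exons of H2-T22, H2-Q4 and Nlrc5 also overlap an annotated gene on the opposite strand, and the strand setting of the counting is not given in the sources used here.

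**Figure D2:**
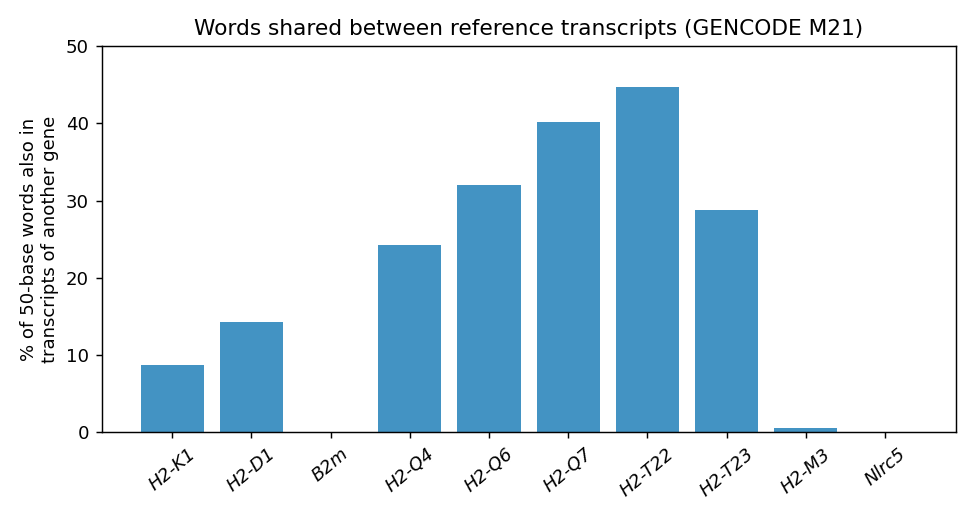
Share of 50-base stretches (y axis, %) of each member's principal transcript that also occur in transcripts of another gene of the GENCODE M21 annotation of C57BL/6J. B2m and Nlrc5 are at 0%, H2-M3 at 0.576%, and the Qa and T-region chains between 24.3% and 44.7%.

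Levels between genes were compared per kilobase of the principal transcript. On this scale B2m was first, H2-D1 second, H2-K1 next and Nlrc5 last in all 6 groups. B2m averaged 1665 ± 37.9 CPM per kb with sgRNA1, 1591 ± 17.8 with sgRNA2 and 1465 ± 8.82 in Rosa26 cells under IFNγ, and 665 ± 19.7 with sgRNA1, 712 ± 17.7 with sgRNA2 and 637 ± 12.7 CPM per kb in Rosa26 cells under vehicle (SD, n = 2 libraries). In Rosa26 cells with vehicle the order after these was H2-Q4 at 36.3 ± 1.40, H2-T23 at 24.0 ± 1.08, H2-M3 at 23.6 ± 1.45, H2-T22 at 20.2 ± 0.609, H2-Q6 at 13.02 ± 0.483, H2-Q7 at 6.73 ± 0.0628 and Nlrc5 at 3.96 ± 0.0897 CPM per kb, with H2-T23 and H2-M3 inside each other's spread. In Rosa26 cells with IFNγ H2-T23 stood at 155 ± 4.69 beside H2-Q4 at 149.1 ± 3.87 CPM per kb, and these neighbours also lay within their spread. The places of several non-classical chains depend on the length used. Per kilobase of all annotated exons H2-T23 stood at 79.0 beside H2-Q4 at 103.0 in Rosa26 cells with IFNγ, and at 12.2 beside H2-M3 at 23.6 and H2-Q6 at 13.02 in Rosa26 cells with vehicle. For H2-Q7, per kilobase of all its annotated exons it came after Nlrc5 in all 3 IFNγ groups and in Rosa26 cells with vehicle. The 8 heavy chain rows summed to 3491 and 3452 CPM with sgRNA1, 3273 and 3298 CPM with sgRNA2 and 3108 and 3103 CPM in Rosa26 cells under IFNγ, and to 1192 and 1189 CPM with sgRNA1, 1205 and 1175 CPM with sgRNA2 and 1076 and 1048 CPM in Rosa26 cells under vehicle. H2-K1 and H2-D1 together made up 71.3% to 72.9% of that sum in IFNγ libraries and 80.3% to 83.9% in vehicle libraries, so the non-classical rows held a larger share under IFNγ in every population.

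**Figure D3:**
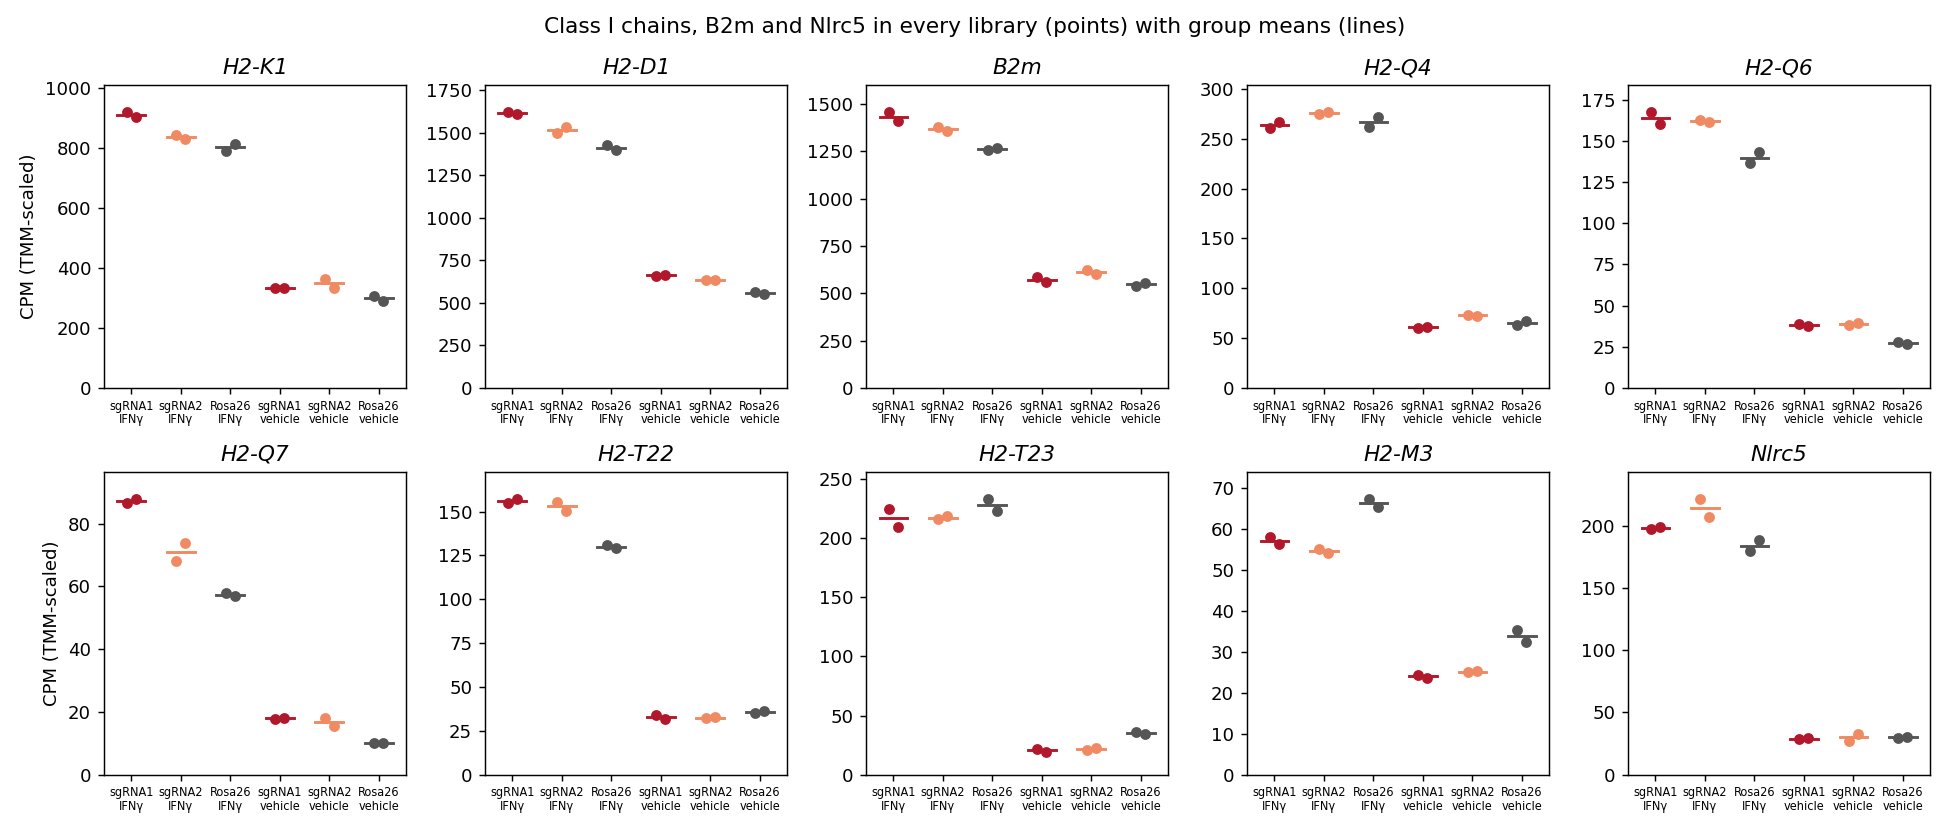
CPM (y axis, from 0, with its own range in each panel) of the 10 members in each of the 12 libraries (points) with group means (lines), for sgRNA1, sgRNA2 and Rosa26 cells with IFNγ and then with vehicle. Each member's IFNγ libraries lie above its vehicle libraries, and in vehicle H2-T23 and H2-M3 are lower and H2-Q6 and H2-Q7 higher in both Cop1 guides than in Rosa26 cells.

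IFNγ raised all 10 members, in Cop1-loss cells (the mean of both guides) and in Rosa26 cells, by edgeR's quasi-likelihood test. Of all 11904 genes tested, 34.2% were called in Cop1-loss cells (18.1% higher, 16.1% lower) and 32.8% in Rosa26 cells (16.6% higher, 16.2% lower), a call being a Benjamini-Hochberg adjusted p under 0.05. The median log2 change of the 10 was 2.05 in Cop1-loss cells and 1.95 in Rosa26 cells, beside -0.0058 and -0.0085 over all genes tested. In bulk RNA a higher level per cell and a larger fraction of expressing cells cannot be told apart. For none of the 10 did IFNγ and vehicle libraries overlap, in any of the 3 populations. The share of all genes without such overlap was not counted. Groups of 2 libraries can separate without a change, and the same limit holds where Cop1-guide and Rosa26 libraries are compared below.

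The classical chains and B2m rose least apart from H2-M3. H2-K1 had 919.7 and 905 CPM with sgRNA1, 843 and 831 CPM with sgRNA2 and 792 and 816 CPM in Rosa26 cells under IFNγ. With vehicle it had 334 and 332 CPM with sgRNA1, 363 and 335 CPM with sgRNA2 and 306 and 291 CPM in Rosa26 cells. H2-D1 had 1619 and 1609.9 CPM with sgRNA1, 1497 and 1532 CPM with sgRNA2 and 1428 and 1396 CPM in Rosa26 cells under IFNγ. With vehicle it had 661 and 665 CPM with sgRNA1, 634 and 632 CPM with sgRNA2 and 562 and 550.1 CPM in Rosa26 cells. B2m had 1455 and 1409 CPM with sgRNA1, 1379 and 1358 CPM with sgRNA2 and 1255 and 1265 CPM in Rosa26 cells under IFNγ. With vehicle it had 584 and 560.3 CPM with sgRNA1, 623 and 602 CPM with sgRNA2 and 540.3 and 556 CPM in Rosa26 cells. For each of the 3 the Rosa26 libraries were the lowest within either treatment, and no vehicle library reached an IFNγ library. The rises were 2.30- to 2.69-fold. The log2 change was 1.36 ± 0.02 in Cop1-loss and 1.43 ± 0.03 in Rosa26 cells for H2-K1, 1.27 ± 0.02 in Cop1-loss and 1.34 ± 0.03 in Rosa26 cells for H2-D1, and 1.24 ± 0.02 in Cop1-loss and 1.20 ± 0.03 in Rosa26 cells for B2m. The error given with a log2 change is its standard error throughout. H2-M3 rose by 1.18 ± 0.05 in Cop1-loss and 0.97 ± 0.06 in Rosa26 cells. The largest adjusted p among the 20 tests was 1.2e-16, for H2-M3 in Rosa26 cells.

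The other non-classical chains and Nlrc5 rose further. Nlrc5 had 197 and 199 CPM with sgRNA1, 221 and 208 CPM with sgRNA2 and 179.6 and 188 CPM in Rosa26 cells under IFNγ. With vehicle it had 28.6 and 29.4 CPM with sgRNA1, 27.1 and 32.8 CPM with sgRNA2 and 29.5 and 30.5 CPM in Rosa26 cells. That is a 6.996-fold rise in Cop1-loss cells (log2 2.81 ± 0.04) and a 6.13-fold rise in Rosa26 cells (2.62 ± 0.06). H2-T23 had the largest change of the 10: 225 and 209 CPM with sgRNA1, 216 and 219 CPM with sgRNA2 and 233 and 223 CPM in Rosa26 cells under IFNγ. With vehicle it had 21.6 and 19.3 CPM with sgRNA1, 21.05 and 22.9 CPM with sgRNA2 and 36.5 and 34.2 CPM in Rosa26 cells. Its Rosa26 libraries were the highest in vehicle and overlapped the Cop1-guide libraries under IFNγ. It rose 10.2-fold in Cop1-loss cells (3.35 ± 0.04) and 6.45-fold in Rosa26 cells (2.69 ± 0.05). H2-Q7 rose by 2.18 ± 0.05 in Cop1-loss and 2.51 ± 0.08 in Rosa26 cells on the log2 scale, and H2-Q6 by 2.08 ± 0.04 in Cop1-loss and 2.36 ± 0.05 in Rosa26 cells. H2-T22 rose by 2.23 ± 0.04 in Cop1-loss and 1.87 ± 0.05 in Rosa26 cells, and H2-Q4 by 2.02 ± 0.03 in Cop1-loss and 2.04 ± 0.04 in Rosa26 cells. With H2-Q6 and H2-Q7 summed the rise was 2.11 ± 0.03 in Cop1-loss and 2.404 ± 0.04 in Rosa26 cells, and with H2-Q4 summed with H2-Q1, H2-Q2 and H2-Q5 it was 2.0015 ± 0.03 in Cop1-loss and 2.09 ± 0.04 in Rosa26 cells.

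**Figure D4:**
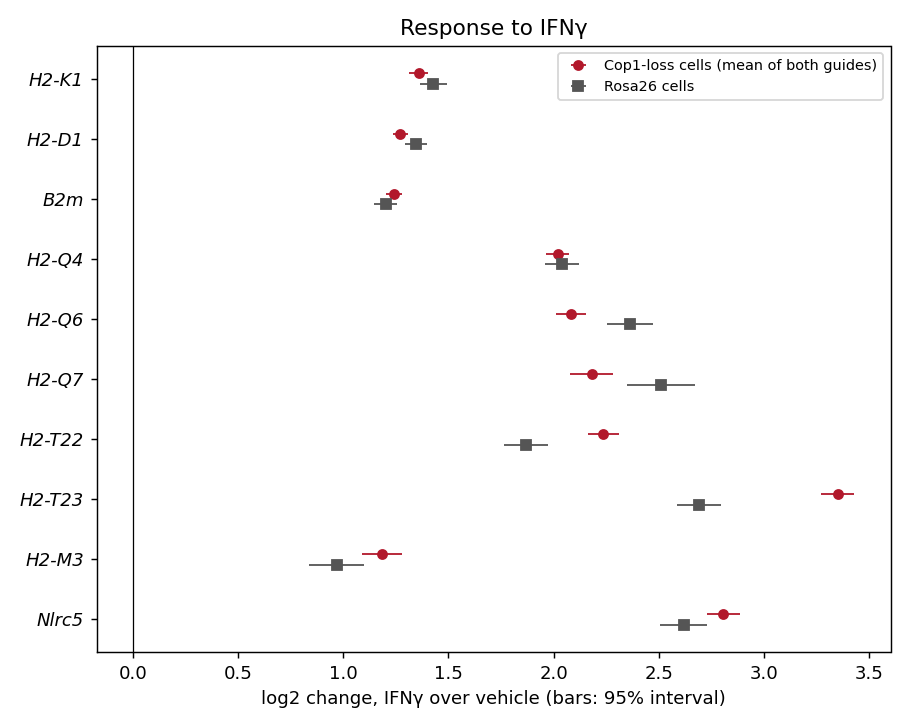
Log2 change with IFNγ over vehicle (x axis) of each member in Cop1-loss cells (circles, mean of both guides) and in Rosa26 cells (squares), with 95% intervals from the edgeR fit. All 10 intervals lie above 0 in both, and those of H2-T23, H2-T22, H2-Q6 and H2-Q7 are set apart between the cell populations.

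In vehicle, loss of Cop1 went with changes in both directions among the heavy chains and with no call for their transactivator. Of the 10 members, 5 rose (H2-K1, H2-D1, B2m, H2-Q6 and H2-Q7), 2 fell (H2-T23 and H2-M3) and 3 were not called. Among all genes tested 35.8% were called, 16.6% higher and 19.2% lower, and the median log2 change was 0.07 for the members and -0.0081 for all genes. The count that fell, 2 of the 10, is near the share of all genes that fell. The rises of the classical chains were small. H2-D1 changed by 0.22 ± 0.02, or 1.16-fold (edgeR's quasi-likelihood test, adjusted p = 6.64e-11), H2-K1 by 0.19 ± 0.03 or 1.14-fold (adjusted p = 4.39e-07 by the same edgeR test) and B2m by 0.11 ± 0.02 or 1.08-fold (adjusted p = 0.000219 by the same edgeR test). For each of the 3 the 4 Cop1-guide libraries lay above both Rosa26 libraries.

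The Qa-2 genes rose most in vehicle. H2-Q7 had 17.8 and 18.04 CPM with sgRNA1 and 18.02 and 15.7 CPM with sgRNA2, against 10.15 and 10.01 CPM in Rosa26 cells. H2-Q6 had 38.6 and 37.4 CPM with sgRNA1 and 38.1 and 39.6 CPM with sgRNA2, against 27.9 and 26.4 CPM in Rosa26 cells. All 4 Cop1-guide libraries were above both Rosa26 libraries for either gene, and the log2 changes were 0.78 ± 0.08 for H2-Q7 (1.72-fold) and 0.50 ± 0.05 for H2-Q6 (1.42-fold). Because the 2 genes share sequence, the rows were also summed, which gave 0.58 ± 0.04 (edgeR's quasi-likelihood test, adjusted p = 2.66e-14). H2-Q5 and H2-Q4, which share sequence with H2-Q6 too, are not in this sum. It therefore cannot decide whether the reads came from the Qa-2 genes.

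Qa-1 and the formyl-peptide presenter moved the other way. H2-T23 fell to 60.3% of its Rosa26 level, a log2 change of -0.73 ± 0.06 (edgeR's quasi-likelihood test, adjusted p = 5.41e-14), with 19.3 to 22.9 CPM in the 4 Cop1-guide libraries against 34.2 and 36.5 CPM in Rosa26 cells. H2-M3 had 24.4 and 23.6 CPM with sgRNA1 and 25.04 and 25.3 CPM with sgRNA2, against 35.4 and 32.5 CPM in Rosa26 cells, a log2 change of -0.46 ± 0.06 (edgeR's quasi-likelihood test, adjusted p = 3.98e-08). Neither gene's groups overlapped. H2-T22 changed by -0.12 ± 0.05 without a call (edgeR's quasi-likelihood test, adjusted p = 0.0708), although its 4 Cop1-guide libraries, at 31.7 to 34.1 CPM, lay below the Rosa26 libraries at 34.9 and 36.4 CPM. It was called lower when library totals replaced TMM, when genes under 10 CPM were left out, or without Cop1 sgRNA1 vehicle replicate 1 (edgeR's quasi-likelihood test, adjusted p = 0.0272, 0.0479 and 0.0402, within 0.0272 to 0.372 over all alternatives). H2-Q4 changed by 0.03 ± 0.04 with a 95% interval of -0.04 to 0.11 (0.08 ± 0.04 without a call with the H2-Q rows summed), and Nlrc5 by -0.02 ± 0.06 with an interval of -0.14 to 0.09. With the libraries of each population summed, the spread comes from the guides alone and the lone Rosa26 sum is taken to vary like them. The log2 changes were then 0.78 for H2-Q7, 0.50 for H2-Q6, -0.73 for H2-T23 and -0.47 for H2-M3. The calls of H2-K1, H2-D1 and B2m were not kept in that fit.

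Under IFNγ, Cop1-loss cells had more transcript of 7 of the 10 members and less of 1. The 7 were H2-K1, H2-D1, B2m, H2-Q6, H2-Q7, H2-T22 and Nlrc5, H2-M3 was lower, and H2-T23 and H2-Q4 were not called. Of all genes tested 40.6% were called, 19.8% higher and 20.7% lower, and the median log2 change was 0.15 for the members and -0.0045 for all genes. H2-Q7 again differed most, at 86.5 and 87.8 CPM with sgRNA1 and 68.1 and 73.9 CPM with sgRNA2, against 57.8 and 56.9 CPM in Rosa26 cells. All 4 Cop1-guide libraries were higher, the sgRNA1 ones the most, and the change was 0.45 ± 0.05 or 1.37-fold (edgeR's quasi-likelihood test, adjusted p = 3.72e-09). With H2-Q6 and H2-Q7 summed it was 0.29 ± 0.03 (edgeR's quasi-likelihood test, adjusted p = 5.81e-10). H2-T22 had 155 and 157 CPM with sgRNA1 and 156 and 150.3 CPM with sgRNA2, against 131 and 129 CPM in Rosa26 cells, without overlap and with a change of 0.25 ± 0.04 (edgeR's quasi-likelihood test, adjusted p = 1.44e-06). H2-Q6 changed by 0.22 ± 0.04, B2m by 0.15 ± 0.02, H2-D1 by 0.15 ± 0.02 and H2-K1 by 0.12 ± 0.03, which are rises of 1.17-, 1.11-, 1.11- and 1.09-fold. Their Cop1-guide libraries also lay above both Rosa26 libraries.

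Nlrc5 rose 1.12-fold, by 0.17 ± 0.04 (edgeR's quasi-likelihood test, adjusted p = 0.000806). Its Cop1-guide libraries, at 197 to 221 CPM, lay above the Rosa26 libraries at 179.6 and 188 CPM. The call ended without Rosa26 IFNγ replicate 1 (adjusted p = 0.0549 by the same edgeR test, within 1.87e-05 to 0.154 over all alternatives). H2-M3 had 58.0 and 56.3 CPM with sgRNA1 and 55.1 and 54.3 CPM with sgRNA2, against 67.4 and 65.6 CPM in Rosa26 cells, without overlap, a change of -0.25 ± 0.05 (edgeR's quasi-likelihood test, adjusted p = 0.000136). H2-T23 libraries of Cop1-guide and Rosa26 cells overlapped, and the change was -0.07 ± 0.04 with a 95% interval of -0.14 to 0.0034. With library totals in place of TMM it was -0.11 and called lower (edgeR's quasi-likelihood test, adjusted p = 0.0117, within 0.0117 to 0.592 over all alternatives). H2-Q4 changed by 0.01 ± 0.03, with an interval of -0.05 to 0.07, and by -0.0086 ± 0.03 with the H2-Q rows summed. Summing the libraries of each population gave log2 changes of 0.46 for H2-Q7 and 0.25 for H2-T22. The calls of H2-Q6, H2-K1, H2-D1, B2m, Nlrc5 and H2-M3 were not kept in that fit.

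**Figure D5:**
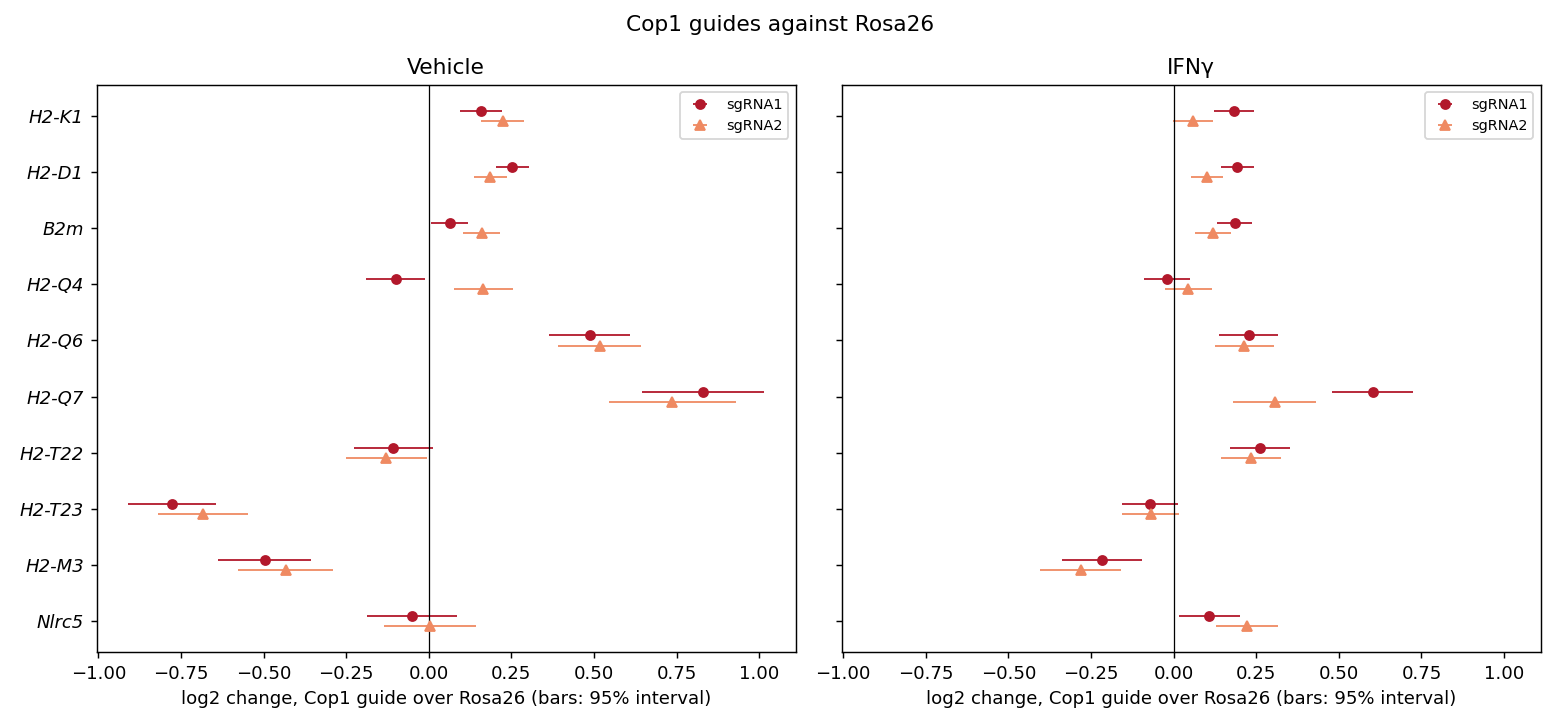
Log2 change of each member in Cop1 sgRNA1 (circles) and sgRNA2 (triangles) cells over Rosa26 cells (x axis), with vehicle on the left and IFNγ on the right; bars are 95% intervals from the edgeR fit, and both guides share the Rosa26 libraries. H2-T23 lies far below 0 in vehicle and near 0 under IFNγ, and H2-Q7 lies furthest above 0 in both panels for either guide.

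The response to IFNγ differed between Cop1-loss and Rosa26 cells for 4 of the 10 members, by the interaction term of the model. Over all genes tested 5.74% were called, 3.38% with a larger and 2.36% with a smaller change in Cop1-loss cells, and the median difference was 0.01 for the members and 0.0099 for all genes. H2-T23 rose more in Cop1-loss cells by 0.66 ± 0.07 on the log2 scale (edgeR's quasi-likelihood test, adjusted p = 2.3e-09). Its Cop1-guide libraries lay below the Rosa26 libraries in vehicle and overlapped them under IFNγ. H2-T22 rose more by 0.37 ± 0.06 (edgeR's quasi-likelihood test, adjusted p = 0.000159). H2-Q6 and H2-Q7 rose less, by -0.28 ± 0.07 and -0.33 ± 0.10 (edgeR's quasi-likelihood test, adjusted p = 0.00553 and 0.0388), and their summed rows gave -0.29 ± 0.05 (adjusted p = 0.000397 by the same edgeR test). The H2-Q7 call was lost in 12 of 20 alternatives, 10 of which left out 1 library, the H2-Q6 call without Rosa26 vehicle replicate 2 (edgeR's quasi-likelihood test, adjusted p = 0.0891, within 0.000397 to 0.984 over all alternatives), and all 4 calls with the libraries of each population summed. The intervals of the other 6 differences were -0.03 to 0.11 for B2m, -0.15 to 0.0064 for H2-K1, -0.13 to -0.01 for H2-D1, -0.12 to 0.08 for H2-Q4, 0.05 to 0.38 for H2-M3 and 0.05 to 0.33 for Nlrc5, before any adjustment for the number of genes.

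The guides were then set against each other. In vehicle 2 of the 10 members differed between sgRNA2 and sgRNA1 cells, with 5.99% of all genes called (2.58% higher, 3.41% lower). H2-Q4 was higher with sgRNA2, at 73.3 and 72.5 CPM against 59.9 and 61.6 CPM with sgRNA1, and the Rosa26 libraries at 63.3 and 66.8 CPM lay between them. This difference was 0.27 ± 0.04 (edgeR's quasi-likelihood test, adjusted p = 5.09e-05), and 0.30 ± 0.04 with the H2-Q rows summed. B2m was higher with sgRNA2 by 0.10 ± 0.03 (edgeR's quasi-likelihood test, adjusted p = 0.0237), a call lost in 4 of 21 alternatives, among them without Cop1 sgRNA1 vehicle replicate 2 and without Cop1 sgRNA2 vehicle replicate 1, where 1 member remained called. Under IFNγ 3 of the 10 were lower with sgRNA2, with 9.41% of all genes called (5.07% higher, 4.33% lower): H2-Q7 by -0.30 ± 0.06, H2-K1 by -0.12 ± 0.03 and H2-D1 by -0.09 ± 0.02 (edgeR's quasi-likelihood test, adjusted p = 0.000686, 0.00516 and 0.0108). With H2-Q6 and H2-Q7 summed the difference was -0.11 ± 0.04 and not called (edgeR's quasi-likelihood test, adjusted p = 0.0618). The H2-Q7 call was lost without Cop1 sgRNA2 IFNγ replicate 1, the H2-K1 call without sgRNA1 replicate 1 or sgRNA2 replicate 2, and the H2-D1 call without sgRNA1 replicate 1 or 2 or sgRNA2 replicate 1 of the IFNγ groups. Cop1 mRNA itself was lower with sgRNA2 than with sgRNA1 in both treatments, by -0.82 ± 0.06 in vehicle and -0.88 ± 0.06 under IFNγ.

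Each guide was also compared with Rosa26 cells on its own, the 2 comparisons sharing the Rosa26 libraries. In vehicle 6 of the 10 members were called with sgRNA1 (4 higher and 2 lower, among 33.4% of all genes called, 15.8% higher and 17.5% lower) and 8 with sgRNA2 (6 higher and 2 lower, among 29.2%, 13.5% higher and 15.7% lower). H2-Q6, H2-Q7, H2-K1 and H2-D1 were higher and H2-T23 and H2-M3 lower with either guide. The count of 2 lower is near the shares of all genes that were lower. H2-T23 changed by -0.78 ± 0.07 with sgRNA1 and -0.68 ± 0.07 with sgRNA2, and H2-Q7 by 0.83 ± 0.09 and 0.74 ± 0.10. Under IFNγ 7 of 10 were called with sgRNA1 (6 higher and 1 lower, among 38.2% of all genes, 18.9% higher and 19.3% lower) and 7 with sgRNA2 (6 higher and 1 lower, among 32.9%, 16.6% higher and 16.2% lower). The calls differed in H2-K1, at 0.18 ± 0.03 with sgRNA1 and 0.06 ± 0.03 without a call with sgRNA2, and in Nlrc5, at 0.11 ± 0.05 without a call with sgRNA1 and 0.22 ± 0.05 with sgRNA2. The difference between guides was called for H2-K1 and not for Nlrc5 (edgeR's quasi-likelihood test, adjusted p = 0.116, interval 0.02 to 0.21). Other settings gained calls here. Nlrc5 with sgRNA1 was called in 4 of 21 alternatives: with no low-count filter, with only the groups compared, and without either Cop1 sgRNA2 vehicle library (edgeR's quasi-likelihood test, adjusted p = 0.0347, 0.00729, 0.0256 and 0.0259, within 0.00729 to 0.359 over all). With sgRNA2 the summed rows of H2-K1 and H2-D1 were called, at 0.09 ± 0.02 (edgeR's quasi-likelihood test, adjusted p = 0.00361, within 0.00361 to 0.652 over all H2-K1 alternatives, this sum among them). H2-D1 alone was called there too, at 0.10 ± 0.02, so the sum does not give a call for H2-K1 itself. The Nlrc5 difference between guides was called with only the groups compared (edgeR's quasi-likelihood test, adjusted p = 0.0302, within 0.0302 to 0.636 over all alternatives).

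The peptide-loading genes, which cut, transport and load the peptides that class I chains carry, were counted beside the members from a list of 14. With IFNγ 13 rose in Cop1-loss cells and 12 in Rosa26 cells, with medians of 2.09 and 1.79, and none fell, where 18.1% and 16.6% of all genes rose. Tap1, a subunit of the TAP transporter, had 357 ± 3.96 CPM with sgRNA1, 365 ± 11.3 with sgRNA2 and 393 ± 6.75 in Rosa26 cells under IFNγ, against 9.35 ± 1.13 with sgRNA1, 10.6 ± 0.121 with sgRNA2 and 11.2 ± 0.354 CPM in Rosa26 cells under vehicle. Loss of Cop1 in vehicle raised 2 of the 14 and lowered 5, with a median of -0.06, where 16.6% of all genes rose and 19.2% fell. Tapbp, the tapasin that holds class I chains at TAP, fell by 0.39 on the log2 scale, with 133 ± 3.27 CPM with sgRNA1 and 138 ± 2.77 with sgRNA2 against 177 ± 3.02 CPM in Rosa26 cells. Under IFNγ 8 of the 14 were higher and 2 lower, with a median of 0.13, where 19.8% of all genes were higher and 20.7% lower. The proteasome activator subunit Psme2 had 339 ± 2.63 CPM with sgRNA1 and 309.6 ± 4.23 with sgRNA2, against 262 ± 1.49 CPM in Rosa26 cells, while Tap1 was lower by -0.12 ± 0.03. The interaction was called with a larger rise in Cop1-loss cells for 8 of the 14 and with a smaller one for 0, where these shares were 3.38% and 2.36% of all genes. Among the 8 were Tapbp at 0.35 ± 0.04, the immunoproteasome subunit Psmb10 at 0.37 ± 0.06 and the proteasome activator subunit Psme1 at 0.27 ± 0.05.

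The regulators of class I transcription were counted from 2 lists. Of 12 genes of IFNγ and NF-κB signalling to the class I enhancer, 9 rose and 1 fell with IFNγ in Cop1-loss cells, and 8 rose and 1 fell in Rosa26 cells, where 18.1% and 16.6% of all genes rose. Loss of Cop1 in vehicle lowered 6 of the 12 and raised 0, with a median of -0.16, where 19.2% of all genes fell and 16.6% rose. Among them Rela, an NF-κB subunit, had 122 ± 1.11 CPM with sgRNA1 and 126 ± 2.67 with sgRNA2 against 142 ± 1.84 CPM in Rosa26 cells. Under IFNγ 6 of the 12 were lower and 2 higher, where 20.7% of all genes were lower and 19.8% higher. Rela had 125 ± 1.32 CPM with sgRNA1 and 129 ± 0.758 with sgRNA2 against 173 ± 1.88 CPM in Rosa26 cells, and Ciita, the class II transactivator and a relative of NLRC5, had 32.4 ± 2.71 CPM with sgRNA1 and 34.5 ± 1.07 with sgRNA2 against 22.3 ± 2.401 CPM in Rosa26 cells. Of 8 genes for the RFX, CREB/ATF and NF-Y factors of the SXY module, 1 rose with IFNγ in either population, Rfx5, by 0.89 ± 0.09 in Cop1-loss and 0.67 ± 0.12 in Rosa26 cells. Creb1 fell in Rosa26 cells by 0.13 on the log2 scale. Cop1 loss lowered Rfx5 in vehicle by 0.29 and raised Nfya and Nfyb under IFNγ by 0.18 each, on the log2 scale. That is 1 of 8 lower in vehicle, where 19.2% of all genes fell, and 2 of 8 higher under IFNγ, where 19.8% were higher. These counts, like those of the 8 with IFNγ, are near the shares over all genes.

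Further class I-like genes and ligands of natural killer cell receptors were counted last. Of 30 other class I and class I-like genes listed, 23 had a row and 12 passed the filter. With IFNγ 11 of the 12 rose in Cop1-loss cells, where 18.1% of all genes rose. In Rosa26 cells 7 rose and 1 fell, where 16.6% of all genes rose and 16.2% fell. The median log2 change was 1.28 in Cop1-loss and 1.62 in Rosa26 cells. The Cop1-loss comparison rests on more libraries, so its larger count does not mean a larger rise. The interaction was called with a larger rise for 1 of the 12 and a smaller one for 2, with a median of -0.22. These shares were 3.38% and 2.36% of all genes. H2-T24, a T-region chain, had 11.9 ± 0.312 CPM with sgRNA1, 15.5 ± 1.09 with sgRNA2 and 16.0 ± 0.0598 in Rosa26 cells under IFNγ, against 0.840 ± 0.407 with sgRNA1, 0.808 ± 0.284 with sgRNA2 and 2.19 ± 0.199 CPM in Rosa26 cells under vehicle. It fell with Cop1 loss in vehicle by 1.46 on the log2 scale (edgeR's quasi-likelihood test, adjusted p = 7.81e-06), was not called under IFNγ (-0.24 ± 0.12), and rose more with IFNγ in Cop1-loss cells (interaction 1.22 ± 0.28). H2-Q5, a Qa-region chain that shares sequence with H2-Q7, rose with Cop1 loss in vehicle by 0.40 ± 0.12, with 6.23 ± 0.488 CPM with sgRNA1 and 7.47 ± 0.910 with sgRNA2 against 5.14 ± 0.665 CPM in Rosa26 cells. Loss of Cop1 raised 2 and lowered 2 of the 12 in vehicle, where 16.6% of all genes rose and 19.2% fell, and raised 3 and lowered 0 under IFNγ, where 19.8% rose and 20.7% fell. The vehicle counts are near those shares. Of 12 natural killer cell ligand genes 7 passed the filter, and Cop1 loss raised 2 of these in vehicle, while 1 rose and 1 fell under IFNγ, again near the shares over all genes. Nectin2, a ligand of the receptor DNAM-1, had 69.2 ± 1.52 CPM with sgRNA1 and 68.3 ± 4.09 with sgRNA2 against 55.5 ± 2.83 CPM in Rosa26 cells under IFNγ.

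The genes whose pattern was most like that of 2 members were sought among 9119 genes by Pearson's r over the 6 group means of log2 CPM, as a description over groups that share 12 libraries and in which IFNγ and vehicle stand apart. For Nlrc5 the 5 nearest were Gbp4, Vwa5a, Tap2, Iigp1 and Uba7, with r of 0.9993 to 0.9998. Of these Gbp4, an interferon-inducible GTPase, had 1093 ± 5.21 CPM with sgRNA1, 1194 ± 9.03 with sgRNA2 and 751 ± 12.7 in Rosa26 cells under IFNγ, against 2.22 ± 0.0551 with sgRNA1, 2.49 ± 0.0187 with sgRNA2 and 2.77 ± 0.863 CPM in Rosa26 cells under vehicle. For H2-K1 the 5 nearest were Gnl1, Mrpl13, Ifitm3, Dab2 and Zfp281, with r of 0.9970 to 0.9988. The size of a change does not enter r. In Rosa26 cells Mrpl13 had 246 ± 2.23 CPM with IFNγ and 202 ± 3.93 with vehicle, and Gnl1 132 ± 4.46 and 101 ± 2.41. H2-K1 had 804 ± 17.1 and 299 ± 10.8 CPM there. Ifitm3, an interferon-induced membrane protein, had 399 ± 17.6 CPM with sgRNA1, 386 ± 9.15 with sgRNA2 and 351 ± 7.28 in Rosa26 cells under IFNγ, against 113 ± 0.0038 with sgRNA1, 113 ± 5.11 with sgRNA2 and 107 ± 2.64 CPM in Rosa26 cells under vehicle.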

How the data were processed

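Per the labels' protocols, frozen cells gave total RNA for TruSeq libraries. The authors deposited whole-number gene counts, not normalized, for all 12 libraries in 1 table. Per the submitters' processing notes the tools were STAR 2.4.0, HTSeq and DESeq2 1.10, with genome build mm10. The sources used here do not give the annotation, the strand setting or how reads with several alignments were handled. A row of totals was left out. It exceeded the sum of the genes by 360 counts in 1 library and equalled it in the others. The members and lists were chosen with earlier results of these data known.

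The main test was edgeR's quasi-likelihood F test (edgeR 4.0.16 in R 4.3.3), with TMM, robust fitting and 1 mean per group over all 12 libraries. Residual degrees of freedom were 6, beside a median prior of 34.5. Genes were kept by filterByExpr with a minimum count of 10 and a minimum total of 15, which 11904 passed. P-values were Benjamini-Hochberg adjusted over these, and a gene was called under 0.05. Cop1 loss averages both guides' effects. The biological coefficient of variation was 3.21%, so small changes are called. Replicate libraries differed by more than counting noise in all groups (chi-square per degree of freedom 2.33 to 4.21). Named genes are the members, Cop1, up to 3 called genes with the smallest p per list and comparison, and the 5 genes most alike to H2-K1 and to Nlrc5; Tap1 under Cop1 loss, Creb1, Nfya, Nfyb and the leukocyte markers were named after their values were seen. Lengths, positions and shared stretches come from GENCODE M21 (GRCm38), promoter windows from RefSeq (GRCm38.p6). The code was tested on simulated counts. Alternatives were DESeq2 1.42.0, other scalings and filters, a replicate block, only the groups compared, summed paralogous rows, each library left out, and, added after the data were seen, libraries of each population summed. Columns of other samples numbered 0.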

Additional observations from a re-analysis of the deposited data

Results flagged for a closer look

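The response to IFNγ differed between Cop1-loss and Rosa26 cells for 4 members, by a test of the difference itself, where 5.74% of all genes were called. All 4 calls were lost with the libraries of each population summed, and the H2-Q7 call was lost in 12 of 20 alternatives. On the log2 scale it was larger in Cop1-loss cells by 0.66 for H2-T23 and 0.37 for H2-T22, and smaller with differences of -0.28 for H2-Q6 and -0.33 for H2-Q7 (edgeR's quasi-likelihood test, adjusted p = 2.3e-09, 0.000159, 0.00553 and 0.0388). The guides differed from each other in 5 cases, where 5.99% of all genes were called in vehicle and 9.41% under IFNγ. In vehicle sgRNA2 cells exceeded sgRNA1 cells by 0.097 for B2m and by 0.27 for H2-Q4. Under IFNγ sgRNA2 cells differed from sgRNA1 cells by -0.092 for H2-D1, -0.12 for H2-K1 and -0.30 for H2-Q7. With H2-Q6 and H2-Q7 summed the last difference was not called, and each of the 5 calls except that of H2-Q4 was lost in some alternatives. Groups of 2 libraries are too small for a search for single outlying libraries.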

How the results depend on the processing

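The IFNγ responses of all 10 members were called under every alternative run. Over 2328 alternative values of the 110 member results, 0 changed sign with a call, 2270 kept their side of the threshold, 38 lost a call and 20 gained one. Sums of paralogous rows count there as results of H2-K1, H2-Q6 and H2-Q4. The replicate numbers did not pair the samples (15 correlations of -0.05 to 0.07). With the replicate block no member result changed its call, the H2-T23 interaction staying at 0.66 (edgeR's quasi-likelihood test, adjusted p = 9.09e-10).

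DESeq2 called 448 genes for the interaction, against 683, and 1 member between the guides in vehicle, against 2. Fitting only the groups compared, 1 member and 464 genes differed between the guides in vehicle. Leaving out each library in turn, the interaction was called for 2 to 5 members and 348 to 733 genes, against 4 and 683. The lowest came without Rosa26 vehicle replicate 2 (2 members: H2-T23 and H2-T22, and 353 genes) and without Rosa26 IFNγ replicate 1 (348 genes), and without Rosa26 vehicle replicate 1 it was 453 genes. Between the guides it was 1 to 3 members and 349 to 686 genes in vehicle, against 2 and 713, with 349, 425 and 408 genes without Cop1 sgRNA1 vehicle replicate 1 or 2 or Cop1 sgRNA2 vehicle replicate 1. Under IFNγ it was 1 to 3 members and 422 to 1264 genes, against 3 and 1120, with 1 member and 422 or 429 genes without replicate 1 of sgRNA1 or sgRNA2, and 732 or 680 genes without replicate 2 of either. With the libraries of each population summed, which leaves fewer columns, members called fell to 4 for Cop1 loss in vehicle, 2 for Cop1 loss under IFNγ and 0 for the interaction. Genes called were then 1102 for IFNγ in Rosa26 cells, 1364 for IFNγ in Cop1-loss cells, 865 and 1397 for Cop1 loss in vehicle and under IFNγ, and 0 for the interaction, where edgeR's quasi-likelihood test gave 546 genes, 3 of them members, an unadjusted p under 0.05. The cause of the other shifts was not tested. Scaling by library totals moved no member's CPM by more than 2.33%. The lowest group sum of a member was 469 counts, for H2-Q7 in Rosa26 cells with vehicle. How reads of the BALB/c alleles and shared sequence affect the counts was not tested.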
